A study of Mus musculus with 12 samples.

Results

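The genes described here are those of the mitochondrial route of programmed cell death: Bcl2, Bcl2l1, Bcl2l11, Mcl1, Bax, Bak1, Bbc3, Apaf1 and Casp9. The set was taken as 9 named genes, and every probe set that the array annotation gives to 1 of them alone was used. It found 28 probe sets for 8 of the genes, among 18193 genes measured in all. Bax was not analysed here, because no single-symbol probe set was matched to it. The brightest probe set of each gene, by its mean over the 12 arrays, gives the gene's main value.

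RNA came from the whole tongue of mouse embryos on day E13.5 of development, on the C57BL/6J background. All embryos carried Myf5-Cre, a recombinase made where the muscle determination gene Myf5 is active. The 6 control samples were Myf5-Cre;Smad4flox/+, heterozygous for the floxed Smad4 allele, and the 6 mutant samples were Myf5-Cre;Smad4flox/flox, with both copies floxed. Smad4 is the shared partner of the receptor-activated SMAD proteins in TGF-β and BMP signalling. By this design recombination is meant to follow the Myf5 lineage and leave Smad4 in other cells of the tongue. The controls can lose 1 copy in the same lineage. Where the recombinase acted was not measured here. The labels call the samples biological replicates without naming litters or the number of tongues per sample, so p-values measure the spread between these samples.

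Cells that take this route to death depend on a balance within the Bcl2 family. Bcl2, Bcl2l1 (Bcl-xL) and Mcl1 hold the effectors Bax and Bak1 in check, while the BH3-only proteins Bcl2l11 (Bim) and Bbc3 (Puma) bind the guardians and release the effectors. Bax and Bak1 then open the outer mitochondrial membrane, cytochrome c leaves, and Apaf1 assembles with it into the apoptosome that activates caspase 9. Much of this balance is set after transcription, so mRNA gives one layer of it. In the embryo, TGF-β and BMP signals can promote death or survival depending on the cell type.

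Bcl2 and Bcl2l11 rose and Apaf1 fell in the mutant tongue, and these are the 3 genes of the set that passed the test. Their promoter windows are shown because the genes changed in the same arrays. The windows are the 250 bases before each annotated transcription start, from RefSeq on build GRCm38.p6, read 5′ to 3′ on the strand of the gene. Capitals mark matches on either strand to CAGAC, a short element bound by SMAD proteins, to GGCGCC, a GC-rich SMAD element, and to GTAAACA, a forkhead motif of the FOXO factors.
Bcl2, chr1:106714291-106714540, minus strand: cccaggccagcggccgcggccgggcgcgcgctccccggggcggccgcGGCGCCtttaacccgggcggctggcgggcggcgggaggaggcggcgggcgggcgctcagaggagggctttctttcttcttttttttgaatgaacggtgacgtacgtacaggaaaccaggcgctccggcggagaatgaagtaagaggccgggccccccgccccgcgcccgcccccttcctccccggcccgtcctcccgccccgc
Bcl2l11 upstream start, chr2:128125788-128126037, plus strand: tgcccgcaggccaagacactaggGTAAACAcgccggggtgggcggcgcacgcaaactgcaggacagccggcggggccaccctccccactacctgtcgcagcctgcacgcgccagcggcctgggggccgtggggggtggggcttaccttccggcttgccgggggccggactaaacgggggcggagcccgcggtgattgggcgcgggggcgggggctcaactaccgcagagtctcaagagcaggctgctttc
Bcl2l11 downstream start, chr2:128127325-128127574, plus strand: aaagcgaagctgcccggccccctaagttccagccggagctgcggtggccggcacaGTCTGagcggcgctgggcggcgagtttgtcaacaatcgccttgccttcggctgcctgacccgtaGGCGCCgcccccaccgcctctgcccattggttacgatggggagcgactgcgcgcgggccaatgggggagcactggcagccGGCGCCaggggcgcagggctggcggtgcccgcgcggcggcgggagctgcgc
Apaf1, chr10:91082744-91082993, minus strand: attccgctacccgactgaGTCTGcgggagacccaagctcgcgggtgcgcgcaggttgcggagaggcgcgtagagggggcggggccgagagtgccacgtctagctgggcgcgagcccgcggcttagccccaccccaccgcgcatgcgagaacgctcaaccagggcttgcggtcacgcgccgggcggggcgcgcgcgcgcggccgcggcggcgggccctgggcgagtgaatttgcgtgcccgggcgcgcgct
The Bcl2 window held 1 match to GGCGCC and none to the other motifs. The upstream window of Bcl2l11 held 1 match to GTAAACA, and the downstream window held 1 match to CAGAC and 2 to GGCGCC. The Apaf1 window held 1 match to CAGAC. These motifs do not overlap one another in the printed windows. Of all 32851 windows of this length in the table, 42.2% held CAGAC, 9.59% held GGCGCC and 3.17% held GTAAACA. Among the 14 windows of all 9 genes, 7 held CAGAC, 4 held GGCGCC and 2 held GTAAACA. A window of Bbc3, which did not pass, held 2 matches to CAGAC and 1 each to GGCGCC and GTAAACA. The printed windows with GGCGCC were rich in G and C (74.8% for Bcl2, 73.2% for Bcl2l11). The shares over all windows were not matched for this. The matches are descriptions of sequence and do not show binding.

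Values are log2 signals per probe set, and means are given ± SD with n = 6 in each group. Differences are mutant minus control on the log2 scale with their standard error (SE), and adjusted p-values come from limma with Benjamini-Hochberg adjustment over all 18193 genes. A gene passed when its adjusted p was under 0.05. Over all genes 11.1% passed, and 6.30% rose while 4.80% fell. Against this background 3 of the 8 genes passed, with 2 higher and 1 lower. The median difference of the 8 genes was -0.0049, and that of all genes was 0.0083. Mutant and control values were fully separate for 1 of the 8 genes, Bcl2, and for 6.30% of all genes.

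Array medians lay between 6.10 and 6.18, and correlations between arrays ran from 0.991 to 0.997. Smad4 was 12.29 ± 0.07 in controls and 12.14 ± 0.27 in mutants (adjusted p = 0.427). Mutant 1 read 11.58 and the other 5 mutants 12.18 to 12.30, within the control range of 12.16 to 12.35. None of its probe sets checks the genotype, since their place relative to the deleted part is not known here. Some arrays stood apart: Xist, expressed from the inactive X, and Y-linked genes were both well above their low levels on control 3, mutant 4 and mutant 6, 18S rRNA probe sets were lowest on control 6 and mutant 6 (13.54 and 12.98 against 14.03 to 14.28), and mutants 1 and 2 lay farthest along the first principal component. Results that change without these arrays are given below with the changed value. The sample titles name the tissue as tongue. Muscle and epithelial markers were bright, with Myog at 13.14 ± 0.05 and the basal keratin Krt5 at 11.80 ± 0.20 in controls. Skeletal muscle markers were lower in the mutants. Of 16 muscle markers 15 fell and none rose, and their summed linear signal was 79439 to 103446 in mutants against 115802 to 135441 in controls. Markers of several other cell types were higher in part. Of 11 neuron markers 8 rose (sum 5135 to 8148 against 3819 to 4477), of 12 cranial mesenchyme markers 8 rose (40263 to 47581 against 34572 to 39037), and of 10 cartilage and bone markers 4 rose (2919 to 3697 against 2054 to 2824). Of 12 oral epithelium markers 5 rose (24222 to 30992 against 19740 to 24759), and of 7 markers of Schwann cells and glia 3 rose and 1 fell (4092 to 5060 against 3965 to 4639). For 11 macrophage markers, 1 of which rose, the sums were 5436 to 6364 in mutants and 5091 to 5578 in controls. Of 11 endothelial markers 1 rose (4947 to 5645 against 4628 to 5350), and none of 9 erythroid markers passed (31087 to 34990 against 32663 to 36827). Over all genes 6.30% rose and 4.80% fell, so 1 rise among 11 macrophage or endothelial markers was near that share. By sign alone, 11 of 11 macrophage markers (median 0.13) and 9 of 11 endothelial markers (median 0.09) were above 0. Of the 9 erythroid markers 0 were (median -0.07), and the median of all genes was 0.0083. RMA values have no true 0, so no marker could be read as absent. In whole-tongue RNA, fewer cells of a type and less RNA per cell cannot be told apart, and the part that these marker shifts play in the results below was not tested.

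Among the pro-survival genes, Bcl2 was the one that rose. Bcl2 protein guards mitochondria in many embryonic cells, including neurons and mesenchyme. Its brightest probe set (1457687_at) had a lowest, median and highest signal of 10.52, 10.65 and 10.68 in controls and of 10.70, 10.88 and 10.95 in mutants. All 6 mutant arrays were above all 6 control arrays, with mutant 6 only just above the highest control. The difference was 0.24 ± 0.05 (SE), a 1.18-fold rise (adjusted p = 0.00662). Bcl2 kept its call with each array left out in turn, at 0.22 to 0.27. Without mutants 1 and 2 together, which lay farthest along the first principal component of all genes, it was 0.22 (adjusted p = 0.0509), and without control 3, mutant 4 and mutant 6 it was 0.27 (0.0153).

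The other Bcl2 probe sets all differed in the same direction. Probe set 1437122_at differed by 0.31 (adjusted p = 0.0118 over all 34945 single-symbol probe sets) and 1422938_at by 0.28 (0.00814). The second of these also had all mutants above all controls. The dimmer 1440770_at, at 6.67 ± 0.29 in controls and 6.91 ± 0.65 in mutants, differed by 0.25 and did not pass (adjusted p = 0.650). Its mutant arrays scattered widely, which leaves a 95% confidence interval from -0.29 to 0.78. The dimmest, 1443837_x_at, differed by 0.29 (adjusted p = 0.335). Of the 5 Bcl2 probe sets, 3 passed.

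Bcl2l1 and Mcl1, the other guardians, did not pass. Bcl2l1 encodes Bcl-xL, which keeps neurons and red cell precursors alive. Its brightest probe set read 9.72, 9.89 and 9.996 (lowest, median, highest) in controls and 9.79, 9.92 and 10.03 in mutants, and the groups overlapped throughout. The difference was 0.03 ± 0.06 (SE, adjusted p = 0.789), with a 95% confidence interval from -0.09 to 0.16. Its other 3 probe sets differed by 0.0087 to 0.02. That interval lies below the value of 0.24 measured for Bcl2, but the difference between the genes was not tested.

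Mcl1, a short-lived guardian that many cells need from day to day, did not pass either. Its brightest probe set read 12.08, 12.16 and 12.27 in controls and 12.08, 12.13 and 12.19 in mutants. The difference was -0.04 ± 0.04 (SE, adjusted p = 0.605), with an interval from -0.14 to 0.05. The 6 Mcl1 probe sets ranged from -0.07 to 0.08 and none passed. Their signs were mixed, so no direction can be read. Each Mcl1 interval included 0, and the highest upper bound was 0.23.

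**Figure D1:**
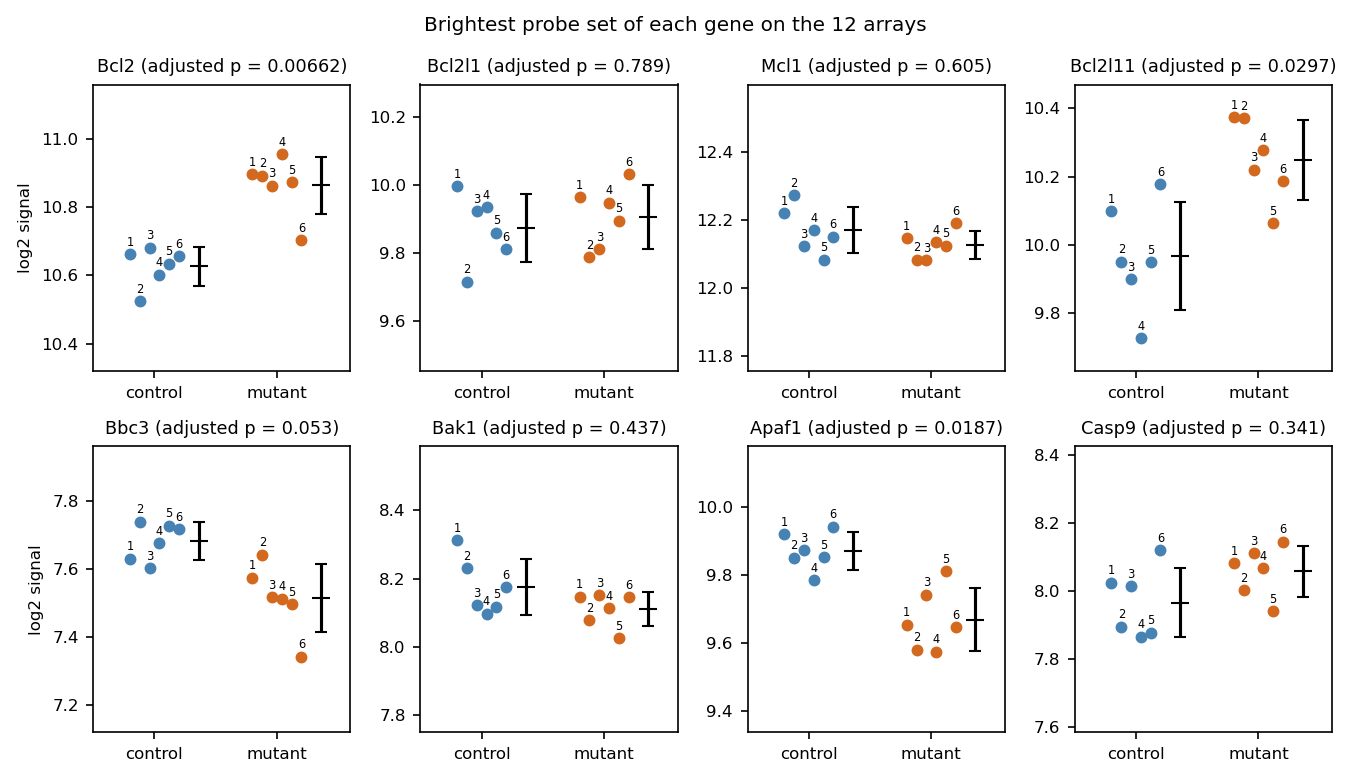
Log2 signal of the brightest probe set of the 8 measured genes on each array, with control arrays in blue, mutant arrays in orange and the replicate number above each point; black bars are the mean and SD of 6 arrays, and every panel spans the same 0.84 log2 units. All mutants lie above all controls for Bcl2, 5 of 6 do so for Bcl2l11, and 5 of 6 lie below all controls for Apaf1 and Bbc3.

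Of the BH3-only genes, Bcl2l11 rose in the mutants. Its product Bim binds all the guardians. Its brightest probe set (1456005_a_at) had a lowest, median and highest signal of 9.73, 9.95 and 10.18 in controls and of 10.06, 10.25 and 10.37 in mutants. Mutants 1 and 2 were highest, control 4 was lowest, and mutant 5 lay within the controls. The difference was 0.28 ± 0.08 (SE), a 1.22-fold rise (adjusted p = 0.0297), and 5 of 6 mutants were above all controls. The call was near the threshold. It ended when control 2, 3, 4 or 5 or mutant 1, 2 or 4 was left out, with adjusted p over the 12 such fits from 0.0147 to 0.0731 and differences from 0.23 to 0.32. With unequal variances allowed its adjusted p was 0.0659, without mutants 1 and 2 the difference was 0.22 (adjusted p = 0.176), and without control 3, mutant 4 and mutant 6 it was 0.28 (0.142).

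The other probe sets of Bcl2l11 differed by 0.02 to 0.31, and 1435448_at had less spread than the brightest in both groups. Probe set 1435448_at, nearly as bright, went from 9.80 ± 0.10 to 10.11 ± 0.11, a difference of 0.31 (adjusted p = 0.00779 over all probe sets), with 5 of 6 mutants above all controls. Probe set 1435449_at went from 7.33 ± 0.16 to 7.60 ± 0.08, a difference of 0.28 (0.0319), with 6 of 6 above. Probe set 1456006_at differed by 0.18 and did not pass (adjusted p = 0.150). The dimmest, 1426334_a_at, read 5.74 ± 0.11 and 5.76 ± 0.07 and differed by 0.02 (0.901). Bcl2l11 is made as several splice forms, and which of them each probe set reads was not given in the sources used here. Of the 5 probe sets, 3 passed.

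Bbc3, whose product Puma is induced by p53 and by FOXO factors, was lower without passing. Its only probe set read 7.60, 7.70 and 7.74 in controls and 7.34, 7.51 and 7.64 in mutants. Mutant 6 was lowest, and mutant 2 alone lay within the controls. The difference was -0.17 ± 0.05 (SE, adjusted p = 0.0530), with a 95% confidence interval from -0.28 to -0.06. It passed after quantile normalisation (-0.19, adjusted p = 0.0128), with dim probe sets left out (0.0314), with array weights (0.0428), without mutant 2 (-0.19, 0.0370) and without mutants 1 and 2 (-0.21, 0.0439). It did not pass under the other 18 alternatives, where adjusted p reached 0.152.

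Within each array, the difference between the Bcl2l11 and Bcl2 signals changed by 0.04 between the groups, with an SD of 0.15 in controls and 0.12 in mutants. The difference between Bcl2l11 and Mcl1 changed by 0.32, with SDs of 0.17 and 0.13. That between Bcl2l11 and Bcl2l1 changed by 0.25, with SDs of 0.20 and 0.16. The shift against Bcl2 was thus smaller than the spread within groups, and those against Mcl1 and Bcl2l1 were larger. No test was made of these differences.

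Bak1, the effector that could be measured, did not pass. Its brightest probe set read 8.10, 8.15 and 8.31 in controls and 8.03, 8.13 and 8.15 in mutants. The groups overlapped, with control 1 highest. The difference was -0.07 ± 0.05 (SE, adjusted p = 0.437) and the interval ran from -0.17 to 0.04. The other probe set differed by -0.05 (adjusted p = 0.833).

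**Figure D2:**
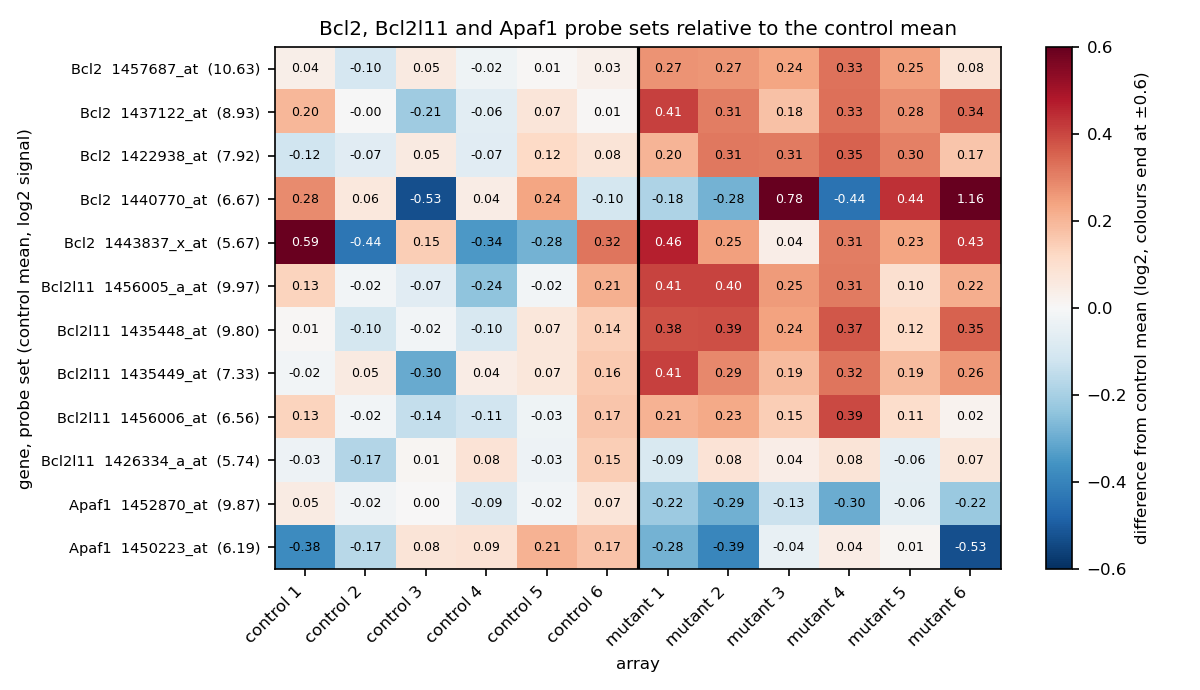
Difference from the control mean, in log2 units, on each of the 12 arrays (columns) for the probe sets of Bcl2, Bcl2l11 and Apaf1 (rows, with the control mean in brackets); red is higher and blue lower, and colours end at 0.6. The 3 brightest Bcl2 and 3 brightest Bcl2l11 probe sets are positive on all 6 mutant arrays, the brightest Apaf1 probe set is negative on all 6, and the dim Bcl2 probe set 1440770_at scatters in both groups.

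In the apoptosome pair, Apaf1 fell and its partner Casp9 did not pass. Apaf1 is the scaffold that cytochrome c turns into a wheel-shaped platform for caspase 9. Its brightest probe set (1452870_at) read 9.78, 9.86 and 9.94 in controls and 9.57, 9.65 and 9.81 in mutants. Mutants 2 and 4 were lowest, and mutant 5 alone lay within the controls. The difference was -0.20 ± 0.05 (SE), a 1.15-fold fall (adjusted p = 0.0187), and 5 of 6 mutants were below all controls. The dimmer probe set of Apaf1 differed by -0.20 as well but spread over 6.19 ± 0.23 and 5.99 ± 0.24 and did not pass (adjusted p = 0.379). The call held with each array left out singly, up to an adjusted p of 0.0492. It was lost with the mean of both probe sets (-0.20, adjusted p = 0.0939), without control 6 and mutant 6 (-0.18, 0.0604), without control 3, mutant 4 and mutant 6 (-0.17, 0.138) and without mutants 1 and 2 (-0.18, 0.112).

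Casp9, the initiator caspase of the mitochondrial route, read 7.87, 7.95 and 8.12 in controls and 7.94, 8.07 and 8.14 in mutants by its brightest probe set. The groups overlapped, with control 6 among the highest arrays. The difference was 0.09 ± 0.06 (SE, adjusted p = 0.341), with an interval from -0.03 to 0.21. Its other 2 probe sets differed by 0.03 and -0.11 and did not pass. The direction therefore depended on the probe set.

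Over all 28 probe sets, 6 passed higher and 1 passed lower, where 7.49% of all single-symbol probe sets passed. Those that passed belong to Bcl2, Bcl2l11 and Apaf1, the same 3 genes as by the brightest probe set. Groups did not overlap for 3 of the 28, where the share over all single-symbol probe sets was 4.77%. Probe sets of 1 gene share its RNA and are not independent. The calls among them fell to 4 when mutant 1, mutant 2 or mutant 4 was left out.

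**Figure D3:**
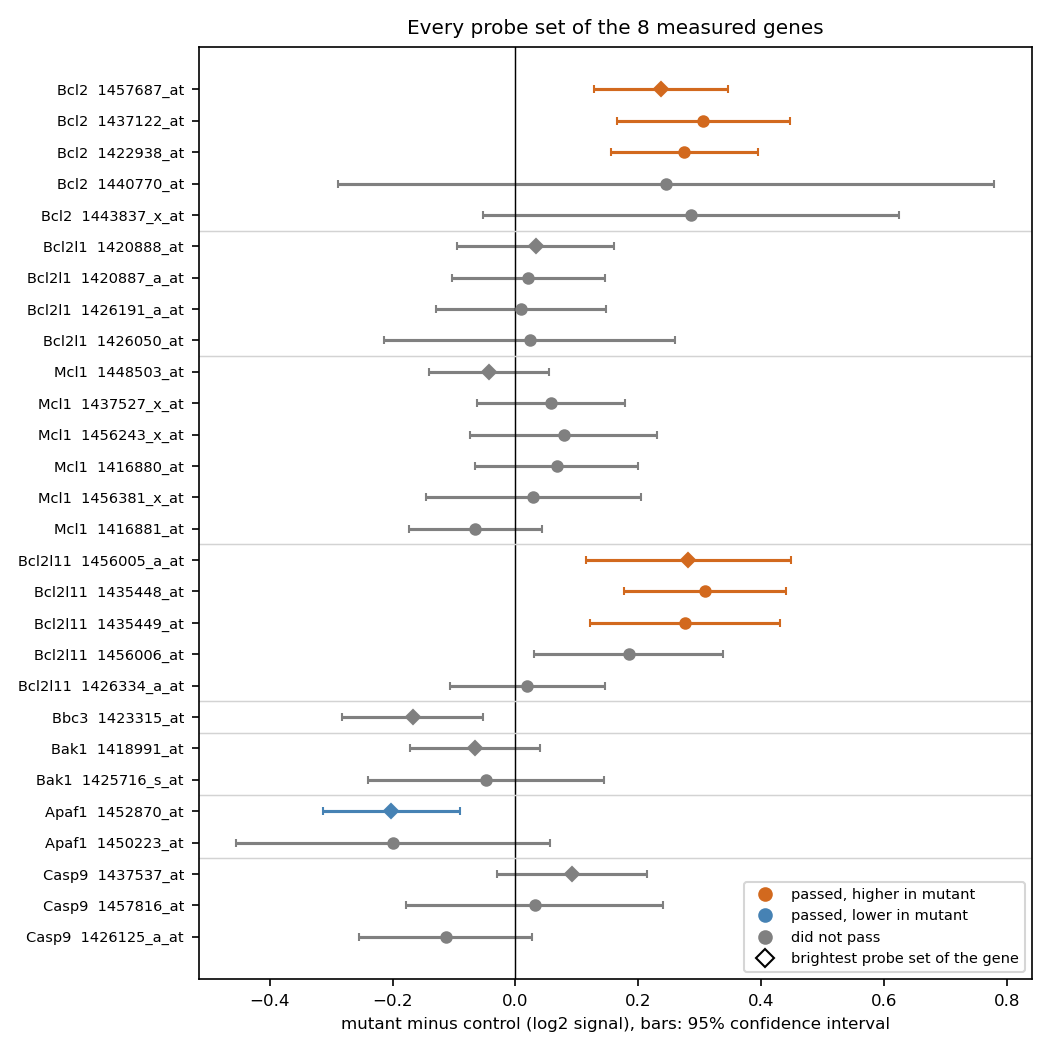
Mutant minus control difference in log2 signal with its 95% confidence interval for every probe set of the 8 genes, ordered by gene and then by brightness; diamonds are each gene's brightest probe set, and colour shows whether the probe set passed over all 34945. Bcl2 and Bcl2l11 have 3 passing probe sets each and Apaf1 has 1, while every Mcl1, Bcl2l1, Bak1 and Casp9 interval includes 0.

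Other genes of the death pathways were described from 8 lists. Of 93 entries 83 were measured, and 7 rose, 5 fell and 71 did not pass, or 14.5% passing against 11.1% of all genes. Their median difference was 0.03. Beside the counts of each list below, 6.30% of all genes rose and 4.80% fell. The members that moved were spread over 7 of the lists.

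Upstream of caspase 9, Bid rose. It is a BH3-only gene like Bcl2l11, and its product is the protein that caspase 8 cleaves to link death receptors to mitochondria. It read 7.51, 7.61 and 7.81 in controls and 7.83, 7.91 and 8.01 in mutants, and the groups did not overlap. The difference was 0.29 ± 0.06 (SE), a 1.23-fold rise (adjusted p = 0.00432). Its dimmest probe set also passed (0.29, adjusted p = 0.0312 over all probe sets), while another differed by 0.11 and did not (0.312). Of the 9 measured other effectors and BH3-only genes Bid alone passed, and the list median was 0.0042. Of the 2 measured pro-survival relatives neither passed. Bcl2l2 (Bcl-w) differed by 0.11 ± 0.05 (SE, adjusted p = 0.223), and its 3 dimmer probe sets differed by -0.22 to -0.11.

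Casp8 and Casp2 rose, the initiator caspase of death receptors and an initiator linked to the PIDDosome. Casp8 read 9.76, 9.94 and 10.02 in controls and 10.17, 10.28 and 10.35 in mutants. The difference was 0.35 ± 0.05 (SE), a 1.28-fold rise (adjusted p = 0.00111). Casp2 read 10.70, 10.82 and 10.88 in controls and 10.99, 11.04 and 11.10 in mutants. That difference was 0.24 ± 0.04 (SE, adjusted p = 0.00286). Neither gene overlapped between the groups, and both kept their calls under all 23 alternatives. Of 12 measured caspases and substrates these 2 rose and none fell, and the median was 0.10.

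Of 12 measured genes of the death receptor pathway, 2 rose and none fell (median 0.04). Tnfrsf1a, the main receptor for TNF, went from 9.91 ± 0.10 to 10.15 ± 0.07, with all mutants above all controls (0.24 ± 0.05 SE, adjusted p = 0.0123). Without mutants 1 and 2 its adjusted p was 0.0744. Traf2, an adaptor of that receptor, differed by 0.14 ± 0.04 (SE, adjusted p = 0.0322), and 5 of 6 mutants were above all controls. Its call ended when control 2, 3, 4 or 5 or mutant 1, 2, 3 or 4 was left out (adjusted p up to 0.0734), and with arrays centred on their medians (0.0706).

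Among proteins released from mitochondria Htra2 fell, and among the inhibitor of apoptosis proteins and their antagonists Septin4 fell. Htra2 is a mitochondrial protease that binds XIAP once released. It read 9.47, 9.64 and 9.72 in controls and 8.87, 9.16 and 9.39 in mutants. The difference was -0.49 ± 0.08 (SE), a 1.41-fold fall (adjusted p = 0.00223), and its other probe set fell by 0.54. Cycs, Diablo, Endog, Aifm1 and Opa1 did not pass. Septin4 is a septin whose ARTS form antagonises XIAP, so it is no inhibitor of apoptosis itself. It read 10.02, 10.27 and 10.47 in controls and 8.58, 9.00 and 9.63 in mutants. At -1.16 ± 0.16 (SE), a 2.24-fold fall (adjusted p = 0.000601), it had the largest difference among the 83 pathway genes. Its second probe set fell by 1.33. None of the other 9 measured genes of that list passed, Xiap, Birc2, Birc3 and Birc5 among them. On the same arrays 15 of 16 muscle markers fell, and mutant 1, the lowest for Septin4 and Htra2, was also the lowest for Myf5 (7.90). Whether these falls are linked was not tested.

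The list of p53, its relatives, regulators and targets had 17 measured genes. Cdkn1a fell, Zmat3 rose and 15 did not pass, a share near that of all genes (median 0.07). Trp53, the gene of p53, was listed but not measured. Cdkn1a, the cell cycle inhibitor p21, is also raised in differentiating myoblasts. It read 12.15, 12.24 and 12.36 in controls and 11.41, 11.69 and 11.81 in mutants. It fell by 0.60 (SE 0.07, adjusted p = 0.000338). Zmat3, a zinc finger RNA-binding protein, differed by 0.16 ± 0.05 (SE, adjusted p = 0.0379), with 5 of 6 mutants above all controls. The Zmat3 call ended without control 1, 2, 3 or 4 or mutant 1, 2, 3 or 4 (adjusted p up to 0.0920), and with arrays centred on their medians (0.0712). Mdm2, Ccng1, Aen and Phlda3, common readouts of p53, did not pass.

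Of the 15 regulators of BH3-only genes measured, 1 rose and 2 fell (median -0.0016). Mapk10, the JNK kinase found mostly in neurons, read 5.90, 5.97 and 6.03 in controls and 6.20, 6.40 and 6.96 in mutants. The difference was 0.57 ± 0.12 (SE, adjusted p = 0.00771), with mutants 1 and 2 far above the rest. Without mutants 1 and 2 it was 0.37 (adjusted p = 0.00367). Of 11 neuron markers 8 rose on the same arrays and 3 did not pass, and a link to Mapk10 was not tested. With unequal variances allowed, Mapk10 had an adjusted p of 0.0691. Gadd45b, a stress and TGF-β response gene, fell by 0.35 (SE 0.08, adjusted p = 0.0158), with no overlap between groups. Without control 3, mutant 4 and mutant 6 it differed by -0.22 (adjusted p = 0.113). Foxo1, a forkhead factor that drives Bcl2l11 and Bbc3 in several cell types, fell by 0.21 (SE 0.06, adjusted p = 0.0290), with 5 of 6 mutants below all controls. Its call ended without control 1, 2 or 6 or mutant 2, 3, 4 or 5 (adjusted p up to 0.0621) and with the mean of all its probe sets (-0.13, 0.0814). Its dimmer probe sets, at -0.19, -0.11 and -0.0075, did not pass. Traf2, Zmat3 and Foxo1 also lost their calls without control 3, mutant 4 and mutant 6 (adjusted p = 0.0668, 0.132 and 0.0614) and without mutants 1 and 2 (0.164, 0.196 and 0.0767).

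**Figure D4:**
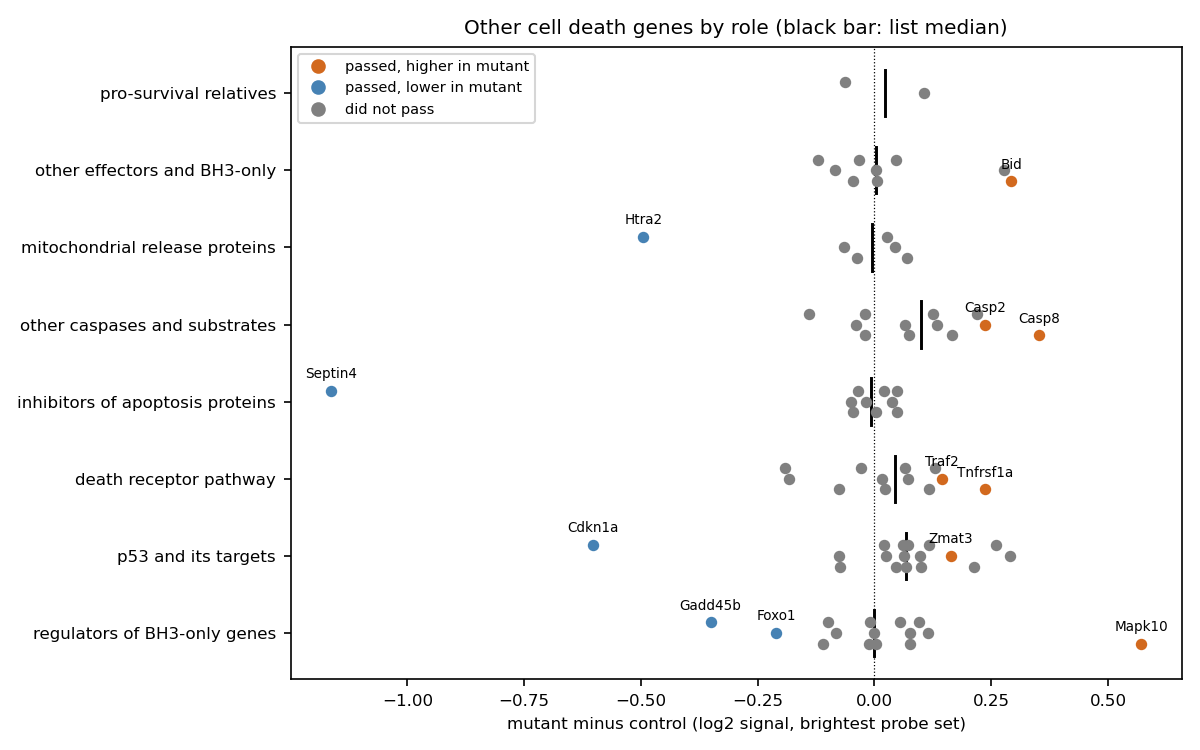
Mutant minus control difference in log2 signal of the brightest probe set for the measured genes of 8 lists of other cell death genes (rows), with passing genes named and coloured by direction and a black bar at each list's median. Most points lie close to 0, Septin4, Cdkn1a and Htra2 lie farthest to the left, and Mapk10 and Casp8 farthest to the right.

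The genes whose signal over the 12 arrays was most like that of each passing gene were found among genes at or above the median signal (9096 searched). These correlations hold the genotype difference in both genes, and genes on 1 array share its RNA, so they are descriptions. Each partner was picked for its high correlation on these same arrays, which also favours a high r within groups. Bcl2 was closest to Fam117b (Pearson r = 0.95 over 12 arrays, Spearman rho = 0.97) and Ttc26 (r = 0.95, rho = 0.94). Within groups, after each group's mean was removed, r was 0.80 and 0.78. Bcl2l11 was closest to Fam110b (r = 0.95, rho = 0.97) and Alkbh4 (r = 0.94, rho = 0.92), with within-group r of 0.88 and 0.87. Apaf1 was closest to Myo5b (r = 0.97, rho = 0.89) and Stard13 (r = 0.94, rho = 0.89), with within-group r of 0.89 and 0.81. Fam117b rose by 0.27, Fam110b by 0.33, Ttc26 by 0.18 and Alkbh4 by 0.15, while Myo5b fell by 0.62 and Stard13 by 0.29.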

How the data were processed

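Total RNA of 12 tongue samples was hybridised to Affymetrix Mouse Genome 430 2.0 arrays, per the labels. The deposited values are log2 signals that the authors summarised per probe set with RMA, per the submitters' processing notes; its software is not stated there, and base 2 was inferred from the range of values (2.57 to 15.09). RMA equalises the arrays, which hides any shift common to most genes, and it shrinks changes of dim probe sets. Arrays carry no read depth; their number sets the precision.

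Of 45101 probe sets, 64 controls were left out, 34945 had 1 symbol in GEO's platform annotation, 932 had several and 9160 had none. Groups came from the sample titles. Each gene's brightest probe set was fitted with limma 3.58.1 in R 4.3.3 (genotype as the only term, 2-sided, Benjamini-Hochberg over 18193 genes); all single-symbol probe sets were fitted the same way. The fit was tested on simulated data with known changes. Named pathway genes were up to 3 passing genes of each list by smallest p, or the smallest p where none passed; likeness used the 2 highest Pearson correlations. The set, the lists and the sets of arrays left out were chosen with earlier results of these data known. Alternatives were other scaling, probe set choice, filtering, variance models, a replicate block and arrays left out. Promoter sequences are RefSeq's.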

Additional observations from a re-analysis of the deposited data

Results flagged for a closer look

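In groups of 6 arrays, 9 of 120 groups of values had 1 array set apart from the other 5 by more than 0.625 of the range, 3 of them among the 56 groups of the Bcl2 family and caspase set; chance gives about 1 in 20. The brightest Bcl2 probe set was low on mutant 6, at 10.70 against 10.86 to 10.95 on the other mutants. Probe set 1425716_s_at of Bak1 was high on control 3, at 5.61 against 5.04 to 5.22. Probe set 1426125_a_at of Casp9 was high on control 5, at 5.86 against 5.67 to 5.73. Outside the set, probe set 1430453_a_at of Bcl2l2 was low on mutant 1 (5.97 against 6.31 to 6.43). Traf2 was low on mutant 6 (8.72 against 8.83 to 8.88), and probe set 1416981_at of Foxo1 was high there (9.00 against 8.68 to 8.79). All 3 Smad4 probe sets were low on mutant 1, at 11.58, 11.32 and 9.89, where the other mutants read 12.18 to 12.30, 12.05 to 12.21 and 10.60 to 10.79.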

How the results depend on the processing

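Each result was recomputed under 23 alternatives. Over the 8 genes, 162 of 184 recomputed differences kept their direction and their side of the threshold, 15 lost the call, 5 gained it and 2 changed sign without a call. Only the 3 passing genes had a call to lose. Bcl2l11 kept its call under 13 of the 23 alternatives, Apaf1 under 19 and Bcl2 under 22. The changes of sign were those of Mcl1 with the mean of its probe sets (0.021) and of Bcl2l1 without control 6 and mutant 6 (-0.0044); Bcl2l2 also turned, to -0.088, with the mean of its probe sets. With control 3, mutant 4 and mutant 6 left out, whose sex-linked signals were mixed (Xist 12.40 with Y-linked genes at 5.31 on control 3, and 8.73 with 8.39 and 7.88 with 8.27 on the mutants), 1 of the 8 genes and 2 of their probe sets passed, and 836 genes in all. With mutants 1 and 2 left out, 1 of the 8 genes and 1 probe set passed, and 875 genes in all. Fewer samples were tested in both. Leaving out single arrays gave 2 to 3 of the 8 genes, 4 to 7 probe sets and 1398 to 2103 genes in all. Replicate numbers are shared between the groups. Deviations of same-numbered arrays correlated over 0.1 for 5 of the 6 pairs (0.12 to 0.24) and by -0.06 for the third pair. Of the 12 arrays, 7 correlated best with the array of their own number. Whether the numbers pair the samples was not tested. The main fit did not pair them, and a fit with the replicate number as a block was among the alternatives. With the replicate block 3 of the 8 genes passed, with Bcl2 at an adjusted p of 0.0253, Bcl2l11 at 0.0429 and Apaf1 at 0.0345, and 1932 genes passed in all. Traf2 (adjusted p = 0.0764) and Zmat3 (0.0890) lost their calls there, which left 10 pathway genes against 12, and 5 probe sets of the 8 genes passed against 7, none of them of Apaf1.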
